A study of Mus musculus with 12 samples.

Results

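The genes described here are those of the endosomal Toll-like receptors Tlr7, Tlr8, Tlr9 and Tlr3, of their chaperone Unc93b1, and of the adaptor Myd88. They were chosen by name, as 6 of the 16094 named genes in the deposited expression table of a single-cell study of mouse spleen. Each was followed over the 12 cell types that the authors annotated, in SLE.yaa mice against WT mice.

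The spleens came from 4 male mice, and cells carrying CD45, a surface protein of white blood cells, were enriched with magnetic beads before capture in 10x Genomics droplets. The SLE.yaa group held 2 mice of strain B6.Sle1yaa, and the WT group held 2 mice of strain C57BL/6. As background, B6.Sle1yaa mice carry the Sle1 interval of chromosome 1 from a lupus-prone strain together with Yaa, a piece of the distal X chromosome moved onto the Y chromosome, so that males hold an extra copy of the genes on that piece, Tlr7 among them. The strains therefore differ at Sle1 and at Yaa together, and the parts of these 2 loci cannot be told apart. The deposited age was 14.9 in both SLE.yaa mice and 14.4 in both WT mice, with no unit given, so age differs with the group. The group labels stand under a tag that mentions chimeras, and the sources used here do not state if any mouse was a chimera. Each mouse gave 1 expression library, and nothing in the labels says more of how the mice were paired or housed.

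Toll-like receptors of the endosome sense nucleic acids that reach that compartment. Tlr7 and Tlr8 bind single-stranded RNA and its breakdown products, Tlr9 binds DNA rich in unmethylated CpG, and Tlr3 binds double-stranded RNA. Unc93b1 is a membrane protein that carries these receptors out of the endoplasmic reticulum to endosomes, and Myd88 is the adaptor that Tlr7, Tlr8 and Tlr9 use for signalling, while Tlr3 uses Ticam1 (TRIF). In B cells, Tlr7 and Tlr9 are known for responses to self RNA and DNA, and extra Tlr7 from the Yaa segment is known to drive autoimmunity in mice.

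The table held 22285 cells, with 4961 and 6130 cells in SLE.yaa mice 1 and 2, against 5497 and 5697 cells in WT mice 1 and 2. The median count of unique molecules (UMIs) per cell was 4695 and 4050 in SLE.yaa mice, against 3467 and 3670 in WT mice. Levels are given in vpm, the mean depth-adjusted value of a gene over the cells of a type in 1 mouse, scaled so that all genes add up to 1000000. Within the 9 types that held at least 20 cells in every mouse, vpm were also scaled between mice with TMM factors, which hold the bulk of genes level between libraries, and only these types were tested. A change is a difference in log2(vpm + 10), SLE.yaa minus WT, from limma with Benjamini-Hochberg adjustment over all genes tested in that type, and it passed at an adjusted p under 0.05. The added 10 makes changes of low genes smaller than their ratios. Between libraries, 254 of 22029 distinct cell barcodes were shared. The B cells described below are the pooled cells of B-early, B-ISG and B, in all 2612 and 2704 cells of SLE.yaa mice and 3450 and 3770 cells of WT mice.

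The annotated names were checked against markers. The 13 or fewer pDC per mouse all held at least 3 of 6 plasmacytoid dendritic cell markers. The type Mac held monocyte rather than macrophage markers: at least 3 monocyte markers were present in 98.2% and 97.3% of Mac cells of SLE.yaa mice and in 99.2% and 97.6% of WT mice, and at least 3 macrophage markers in at most 1.78% of any mouse. The type DC differed in kind between the groups. At least 3 macrophage markers, such as the complement genes C1qa and C1qb, were present in 79.2% and 73.1% of DC cells of SLE.yaa mice, against 5.19% and 12.2% of WT mice. At least 3 conventional dendritic cell markers were present in 8.85% and 12.1% of DC cells of SLE.yaa mice, against 36.4% and 41.9% of WT mice. The names DC and Mac are kept below as the authors' labels, not as cell types.

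Each receptor had its own set of cells. Tlr7, on chromosome X at 167303380 to 167330574 (GRCm38.p6 annotation), was highest in Mac among the tested types, at 186 and 195 vpm in SLE.yaa mice and 105 and 122 vpm in WT mice. In SLE.yaa mice the order was Mac, B-ISG, DC and B, each apart from the next in both mice, and then PMN, NK, B-early, CD4 and CD8, whose neighbours overlapped. In WT mice the order was Mac, B-ISG, DC and B, where DC and B overlapped, then B-early, CD4, CD8 and PMN, and NK was listed at 0 in both mice. The few pDC, cells known for interferon release after Tlr7 and Tlr9 stimulation, had Tlr7 levels of 184 and 259 vpm in SLE.yaa mice (2 and 13 cells), against 89.3 and 118 vpm in WT mice (13 and 8 cells).

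Tlr8 lies beside Tlr7 on chromosome X, at 167241123 to 167264329. Its highest levels were in DC, Mac and PMN in SLE.yaa mice and in Mac and PMN in WT mice, whose DC were listed at 0. Tlr8 was listed at 0 in B-early, B-ISG, NK, PC, pDC and Baso cells of all 4 mice. Tlr9, on chromosome 9 at 106222598 to 106226876, was by contrast highest in B-ISG and B-early, whose levels overlapped in both groups. B, DC and then Mac followed, with DC and B overlapping in WT mice only, and no other tested type passed 5 vpm in any mouse. In pDC, Tlr9 stood at 184 and 45.6 vpm in SLE.yaa mice and at 161 and 147 vpm in WT mice. Tlr3, on chromosome 8 at 45395665 to 45411075, was low throughout, and DC was the tested type in which it reached 10 vpm in all 4 mice.

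Unc93b1, on chromosome 19 at 3935158 to 3949340, followed the antigen-presenting cells. It was highest in B-early in both groups, at 889 and 781 vpm in SLE.yaa mice and 778 and 736 vpm in WT mice, and in SLE.yaa mice B-early, DC, B-ISG and B overlapped with their neighbours. Mac and PMN followed in both groups, and NK, CD4 and CD8 were lowest. Myd88, on chromosome 9 at 119335934 to 119340018, had another order, with PMN highest at 255 and 153 vpm in SLE.yaa mice and 228 and 187 vpm in WT mice. Mac and DC came next in both groups, and the lowest level belonged to B-early in SLE.yaa mice and to B in WT mice. Every annotated type and mouse is shown in the plot of levels by type.

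**Figure D1:**
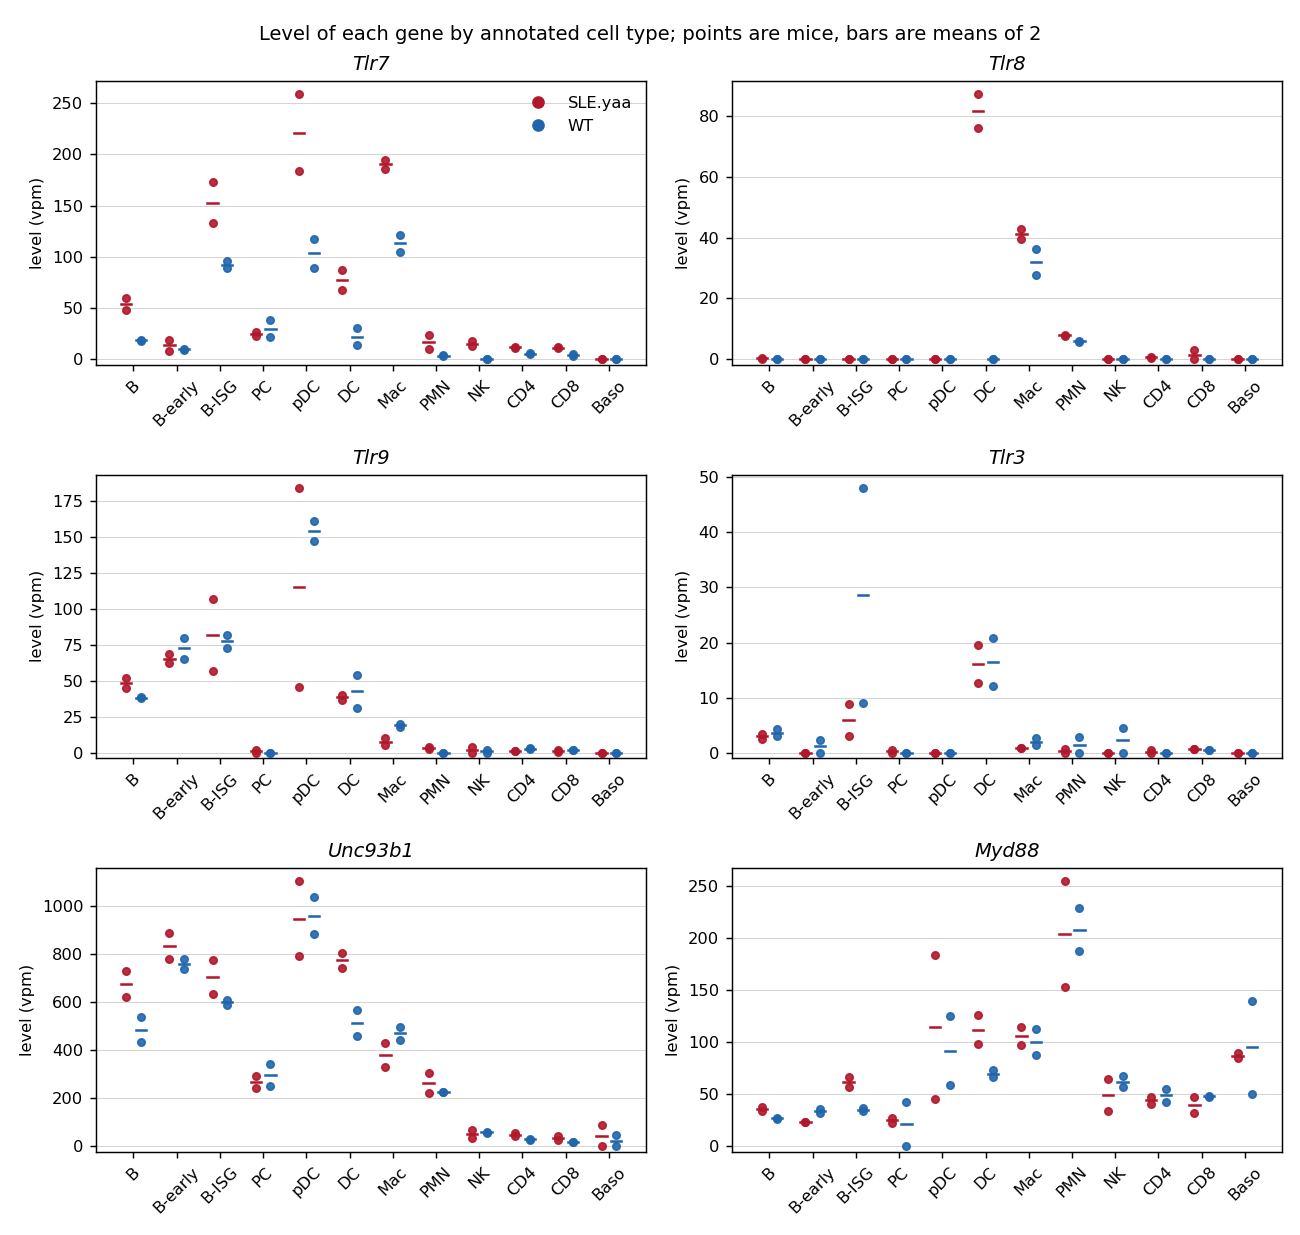
Level (vpm, linear axis) of each of the 6 genes in each annotated type; each point is 1 mouse and each bar the mean of 2 mice, SLE.yaa in red left of WT in blue. Tlr7 stood at 186 and 195 vpm in Mac of SLE.yaa mice against 105 and 122 vpm in WT mice, and Tlr8 in DC stood at 87.1 and 75.9 vpm in SLE.yaa mice against 0 in both WT mice; pDC, PC and Baso held as few as 2 cells in a mouse and were not tested.

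Of the 6 genes, 4 had a promoter in the RefSeq table used (GRCm38.p6), namely Tlr8, Tlr9, Tlr3 and Myd88; Tlr7 and Unc93b1 were missing. Those of Tlr9, Tlr8 and Myd88 are shown, since these genes had their highest levels in different kinds of cell. Each sequence is the 250 bases before the gene's start, read 5′ to 3′ on the gene's strand, and capitals mark matches on either strand to 3 motifs that were searched: the octamer ATGCAAAT, known from immunoglobulin promoters, GAGGAA, the core bound by the factor PU.1, and AANNGAAA, the core known from binding by interferon regulatory factors (IRF). The letters are a description of the sequence, and binding was not measured. Tlr9, highest in B cells and pDC, lies on the plus strand with its window at chr9:106222348-106222597. Tlr8, highest in DC in SLE.yaa mice and in Mac in WT mice, lies on the minus strand with its window at chrX:167264330-167264579. Myd88, highest in PMN, lies on the minus strand with its window at chr9:119340019-119340268.
Tlr9: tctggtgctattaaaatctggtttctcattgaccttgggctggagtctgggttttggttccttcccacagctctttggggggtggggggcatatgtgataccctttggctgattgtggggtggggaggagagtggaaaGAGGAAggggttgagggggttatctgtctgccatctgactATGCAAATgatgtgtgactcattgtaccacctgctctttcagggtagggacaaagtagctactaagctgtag
Tlr8: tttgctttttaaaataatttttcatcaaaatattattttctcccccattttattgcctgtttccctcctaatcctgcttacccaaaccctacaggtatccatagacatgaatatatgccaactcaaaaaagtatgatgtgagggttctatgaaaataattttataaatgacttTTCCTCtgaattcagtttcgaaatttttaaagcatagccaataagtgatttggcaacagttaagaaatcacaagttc
Myd88: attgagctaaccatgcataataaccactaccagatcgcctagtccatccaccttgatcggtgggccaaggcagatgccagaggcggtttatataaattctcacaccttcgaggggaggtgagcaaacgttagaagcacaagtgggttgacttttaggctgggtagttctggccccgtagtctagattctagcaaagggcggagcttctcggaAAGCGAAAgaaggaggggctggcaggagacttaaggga

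The Tlr9 window held the octamer and GAGGAA, the Tlr8 window held GAGGAA on the other strand, written TTCCTC above, and the Myd88 window held AANNGAAA as AAGCGAAA. Among 32851 RefSeq windows of the same length, the octamer was present in 1.60%, GAGGAA in 23.3% and AANNGAAA in 21.3%, so a match to either of the last 2 is common. The Tlr3 window, not shown, held AANNGAAA on the other strand and neither of the other motifs. Unlike the windows shown, it lies inside the span given above for its gene, at chr8:45410381-45410630, and so not directly before that span. The motifs share no letters with each other in these windows.

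Tlr7 was higher in B cells of SLE.yaa mice than in B cells of WT mice. Over B cells, Tlr7 stood at 48.4 and 60.7 vpm in SLE.yaa mice, against 19.2 and 20.1 vpm in WT mice, and the groups did not overlap. The log2 change was 1.12 ± 0.11 (SE, n = 2 mice each; 95% interval 0.87 to 1.36; limma adjusted p = 0.000455). Among all genes tested in B cells, 3.52% passed in either direction and 2.62% were higher in SLE.yaa. Tlr7 was the only one of the 4 members tested in B cells that passed.

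The share of B cells with any Tlr7 value was 18.7% (95% Clopper-Pearson interval 17.2% to 20.3%) and 20.1% (18.6% to 21.6%) in SLE.yaa mice. In WT mice it was 6.17% (5.39% to 7.03%) and 6.66% (5.88% to 7.50%). For a background, the share in CD4 T cells, which are not known for Tlr7, was 4.88% and 4.73% in SLE.yaa mice and 1.88% and 2.04% in WT mice, below the B cell share of the same mouse. Depth moved with the group: the median UMI count of B cells was 4733 and 4392 in SLE.yaa mice, against 3187 and 3355 in WT mice. Among B cells with 3000 to 5000 UMIs, Tlr7 stood at 38.0 and 43.1 vpm in SLE.yaa mice, against 20.7 and 20.6 vpm in WT mice, and the change was 0.88 (limma adjusted p = 0.00101). This window, also used for other genes below, did not make depth equal in B cells. Its median UMI counts were 4026 and 3938 in SLE.yaa mice, against 3568 and 3597 in WT mice. Summed monocyte markers in B cells were also higher, at 92.5 and 199 vpm in SLE.yaa mice, against 21.4 and 24.3 vpm in WT mice, where Fn1 was at 0 in WT mouse 1 and Ace in WT mouse 2; all 11 were present in SLE.yaa mice. Without B cells that held 2 or more markers of monocytes, macrophages, neutrophils or plasma cells, Tlr7 was at 49.0 and 54.6 vpm in SLE.yaa mice and at 18.7 and 20.2 vpm in WT mice.

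Tlr7 was also compared within subsets of B cells, which share many cells with each other and so are not separate results. B cells with an IgM or IgD heavy chain had Tlr7 levels of 50.6 and 58.7 vpm in SLE.yaa mice, against 18.6 and 20.6 vpm in WT mice (log2 change 1.15, limma adjusted p = 0.000145). B cells with Cr2, a complement receptor high in marginal zone and follicular B cells, had 52.1 and 65.4 vpm of Tlr7 in SLE.yaa mice and 23.8 and 23.4 vpm in WT mice. Class-switched B cells had 47.3 and 56.9 vpm in SLE.yaa mice (51 and 79 cells), and 37.6 and 0 vpm in WT mice, where 14 and 6 such cells leave no useful comparison.

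B cells with Tbx21 or Itgax, the genes of T-bet and CD11c that mark age-associated B cells, numbered 342 and 300 in SLE.yaa mice and 59 and 28 in WT mice. Their Tlr7 level was 79.3 and 89.8 vpm in SLE.yaa mice and 18.7 and 19.1 vpm in WT mice. The remaining B cells had 44.4 and 52.8 vpm in SLE.yaa mice and 19.1 and 21.0 vpm in WT mice. In both SLE.yaa mice the level was higher in B cells with these genes than in those without, and in both WT mice it was slightly lower. The change among B cells without Tbx21 and Itgax was 1.02 (limma adjusted p = 0.00132). Cells with Tbx21 or Itgax were deeper, with median UMI counts of 6713 and 6203 in SLE.yaa mice and 3298 and 3779 in WT mice. Within 3000 to 5000 UMIs, cells with Tbx21 or Itgax had 51.1 and 41.6 vpm of Tlr7 in SLE.yaa mice (60 and 79 cells) and cells without had 37.3 and 43.2 vpm, so their ranges then overlapped.

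By annotated type, the main type B behaved like B cells together, with 47.8 and 60.3 vpm of Tlr7 in SLE.yaa mice and 18.5 and 18.4 vpm in WT mice (log2 change 1.16, limma adjusted p = 0.000208, where 4.1% of all genes passed). B-ISG had 133 and 173 vpm in SLE.yaa mice and 96.2 and 88.7 vpm in WT mice, without overlap, but its change of 0.66 did not pass (adjusted p = 0.455, where 0.867% of genes passed). B-early, the least mature by its name, had 18.9 and 8.18 vpm in SLE.yaa mice and 9.35 and 10.5 vpm in WT mice, and these ranges overlapped (log2 change 0.20, adjusted p = 0.926, where 0.437% of genes passed). Without SLE.yaa mouse 1 the B-early change was −0.13. Plasma cell markers in B-early summed to 13485 vpm in that mouse, against 975 vpm in SLE.yaa mouse 2 and 458 and 440 vpm in WT mice, and their part in the value was not tested. The difference between the changes of B-early and B was −0.96 and did not pass (limma adjusted p = 0.328, where 0.35% of genes passed). Plasma cells (PC), of which WT mice held 12 and 11, had 26.3 and 22.9 vpm of Tlr7 in SLE.yaa mice and 38.7 and 21.3 vpm in WT mice.

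Tlr7 was also higher in Mac, DC and CD4 cells of SLE.yaa mice. In Mac the change was 0.70 ± 0.13 (SE, n = 2 mice each; limma adjusted p = 0.0158), where 5.69% of all genes passed in either direction. The 2 groups did not overlap at 186 and 195 vpm in SLE.yaa mice and 105 and 122 vpm in WT mice. The call in Mac was lost without either SLE.yaa mouse (adjusted p = 0.0999 without mouse 1 and 0.220 without mouse 2). Monocyte markers moved with the group in Mac, with sums of 12865 and 10904 vpm in SLE.yaa mice and 20633 and 23301 vpm in WT mice and none of the 11 at 0. Mac cells without Ly6c2, a marker of classical monocytes, had 175 and 178 vpm of Tlr7 in SLE.yaa mice and 113 and 110 vpm in WT mice (log2 change 0.73, adjusted p = 0.0535). Mac cells with Ly6c2 had 191 and 177 vpm in SLE.yaa mice and 105 and 165 vpm in WT mice (log2 change 0.55, adjusted p = 0.438).

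In DC, Tlr7 stood at 87.1 and 67.4 vpm in SLE.yaa mice, against 30.1 and 13.9 vpm in WT mice, a log2 change of 1.48 ± 0.30 (SE, n = 2 mice each; limma adjusted p = 0.0141), where 12.1% of all genes passed. The groups did not overlap, but the call was lost without either SLE.yaa mouse (adjusted p = 0.396 and 0.253). This result moved with the cells in the type. DC cells with fewer than 3 macrophage markers had 31.0 and 23.7 vpm of Tlr7 in SLE.yaa mice (54 and 78 cells) and 24.2 and 8.03 vpm in WT mice (73 and 65 cells), ranges that overlapped narrowly, with a change of 0.67 (adjusted p = 0.685). DC cells with 3 or more macrophage markers had 99.1 and 78.8 vpm in SLE.yaa mice (206 and 212 cells) and 196 and 68.2 vpm in WT mice (4 and 9 cells). Summed over the whole list of 10 macrophage markers, DC of SLE.yaa mice reached 16038 and 11781 vpm, against 935 and 2044 vpm in WT mice, with none of the 10 at 0 in any mouse. A change in Tlr7 per cell and a change in which cells bear the name DC cannot be told apart in the type as a whole.

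CD4 T cells had low Tlr7 levels that were higher in SLE.yaa mice, at 11.5 and 12.3 vpm, against 5.24 and 5.99 vpm in WT mice. The log2 change was 0.49 ± 0.14 (SE, n = 2 mice each; limma adjusted p = 0.0198). Tlr7 reached the minimum of 10 vpm in CD4 through SLE.yaa mice alone, so it had to differ to be tested; with no minimum level the adjusted p was 0.0380. In CD4 cells 28.1% of all genes passed in either direction and 15.9% were higher, so a call there is common. It was lost without either WT mouse (adjusted p = 0.171 without mouse 1 and 0.109 without mouse 2). The Tlr7 level of CD4 cells was 24.1% and 21.3% of the B cell level in SLE.yaa mice, and 26.7% and 28.6% in WT mice. The summed B cell markers of CD4 cells were 2.53% and 3.19% of their sum in B cells in SLE.yaa mice, and 4.18% and 4.53% in WT mice. Macrophage markers in CD4 cells moved with the group, with sums of 70.8 and 78.0 vpm in SLE.yaa mice and 9.82 and 3.79 vpm in WT mice. Of the 10 macrophage markers, 0 and 1 were at 0 in SLE.yaa mice and 4 and 7 in WT mice, and their part in the Tlr7 value was not tested.

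In CD8, PMN and NK Tlr7 was higher in both SLE.yaa mice than in both WT mice without passing the test, and it reached the minimum level there through SLE.yaa mice alone. CD8 had 11.9 and 10.9 vpm in SLE.yaa mice and 5.49 and 2.93 vpm in WT mice (log2 change 0.60, limma adjusted p = 0.161, where 3.15% of genes passed). PMN had 10.4 and 23.9 vpm in SLE.yaa mice and 2.91 and 4.07 vpm in WT mice (log2 change 0.97, adjusted p = 0.158, where 1.9% of genes passed). NK had 12.8 and 17.6 vpm in SLE.yaa mice, from 1 and 2 cells with a value, and was listed at 0 in both WT mice, so no fold is given (adjusted p = 0.636, where 0.0967% of genes passed). Over all cells together, which mixes the make-up of the spleen with levels per cell, Tlr7 stood at 52.7 and 78.8 vpm in SLE.yaa mice and 21.8 and 18.8 vpm in WT mice (log2 change 1.30, adjusted p = 0.0107, where 7.85% of genes passed).

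**Figure D2:**
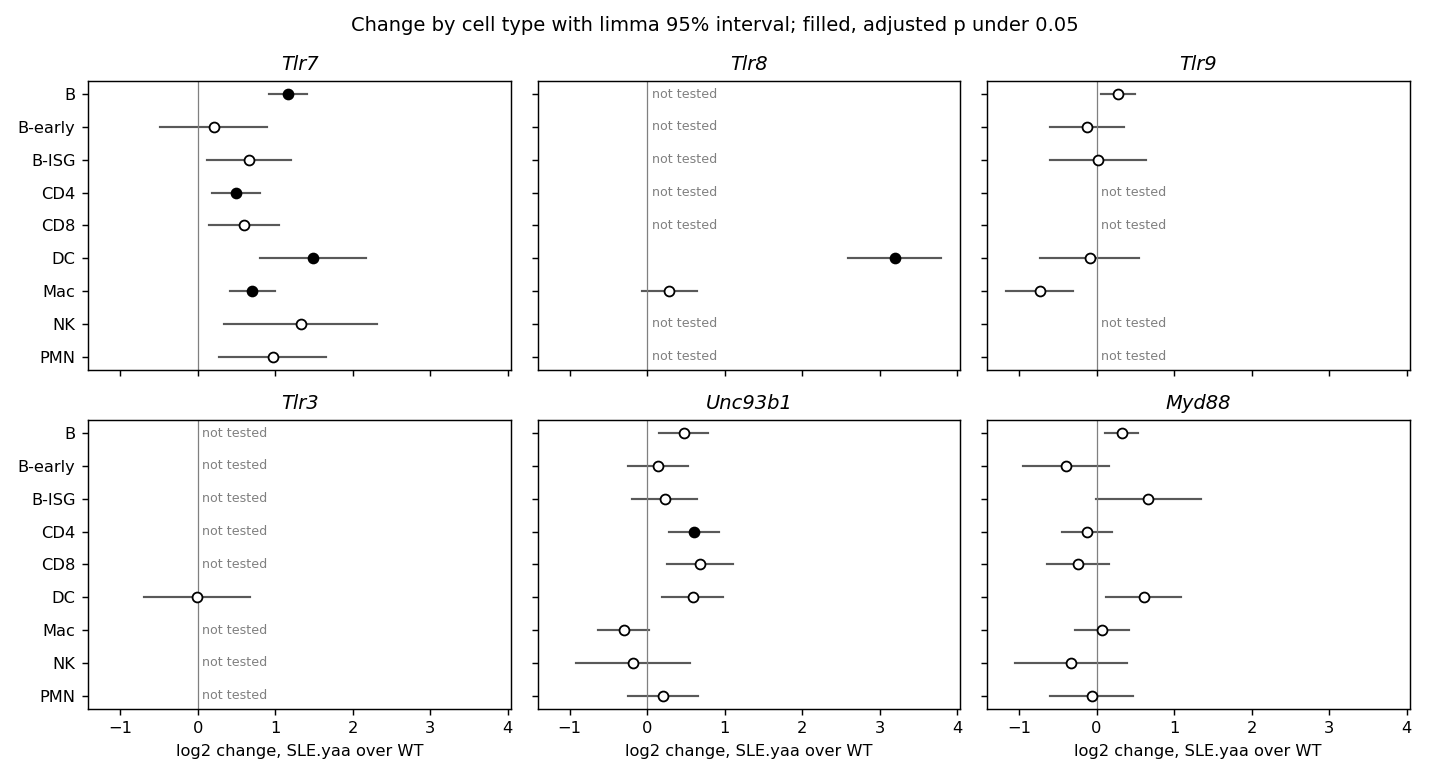
Log2 change, SLE.yaa over WT, with its limma 95% interval, for each of the 6 genes (panels) in each tested type (rows); filled points passed at an adjusted p under 0.05 and grey text marks genes under the minimum of 10 vpm in 2 mice. Tlr7 passed in B (1.16), DC (1.48), Mac (0.70) and CD4 (0.49), Tlr8 in DC, and Unc93b1 in CD4 (0.60); Tlr7 in CD4 and Tlr8 in DC reached the minimum through SLE.yaa mice alone.

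Tlr8 reached the minimum for a test in 2 types, DC and Mac. In DC it did so through SLE.yaa mice alone, so that it had to differ there and the test is no support beyond the levels. It stood at 87.1 and 75.9 vpm in DC of SLE.yaa mice and was listed at 0 in DC of both WT mice. A Tlr8 value was present in 75 of 260 and 60 of 290 DC cells of SLE.yaa mice, or 28.8% and 20.7%. It was present in 0 of 77 and 0 of 74 DC cells of WT mice, which allows shares of up to 3.90% and 4.05%, and these limits cover counting error only. The limma adjusted p in DC was 0.000216 and, with no minimum level, 0.0260. The fitted log2 change of 3.19 depends on the pseudocount and is no bound on the ratio, since WT mice were at 0. Without SLE.yaa mouse 1 or 2 the adjusted p was 0.0735 or 0.0597.

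Most Tlr8 in DC lay in the cells with macrophage markers. Those with 3 or more had 105 and 95.7 vpm in SLE.yaa mice, and were listed at 0 in WT mice, where they numbered 4 and 9. DC cells with fewer had 11.6 and 10.5 vpm in SLE.yaa mice and 0 in both WT mice (adjusted p = 0.496). In Mac Tlr8 stood at 42.9 and 39.5 vpm in SLE.yaa mice and 27.9 and 36.3 vpm in WT mice, without overlap and with a change of 0.29 that did not pass (limma adjusted p = 0.351). The share of Mac cells with Tlr8 was 14.2% and 12.4% in SLE.yaa mice and 10.4% and 14.8% in WT mice, so the shares overlapped. PMN had 8.10 and 7.74 vpm in SLE.yaa mice and 5.82 and 6.11 vpm in WT mice, under the minimum for a test. In B cells Tlr8 was at 0.248 and 0.444 vpm in SLE.yaa mice and at 0 in WT mice, where 0 of 3450 and 0 of 3770 cells allow shares of up to 0.0870% and 0.0796%. Tlr8 is on the same segment as Tlr7, and in B cells it remained near 0 in both groups.

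Tlr9, the DNA receptor, is not on the Yaa segment, and it passed in 0 of the 5 types tested (limma), with 2 at an unadjusted p under 0.05, B and Mac. In B cells it stood at 53.6 and 46.2 vpm in SLE.yaa mice and 42.1 and 40.7 vpm in WT mice, without overlap, and its change of 0.22 (95% interval −0.01 to 0.44) did not pass (limma adjusted p = 0.416). Among B cells with 3000 to 5000 UMIs the order turned, with 41.3 and 37.4 vpm in SLE.yaa mice and 43.0 and 42.7 vpm in WT mice. B-early had 68.6 and 62.2 vpm in SLE.yaa mice and 79.5 and 65.3 vpm in WT mice, and DC had 40.4 and 36.7 vpm in SLE.yaa mice and 54.2 and 31.3 vpm in WT mice. Both pairs overlapped, as did B-ISG with 107 and 56.5 vpm in SLE.yaa mice and 81.7 and 72.7 vpm in WT mice.

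In Mac, Tlr9 was lower in both SLE.yaa mice, at 9.93 and 5.25 vpm, against 19.9 and 18.2 vpm in WT mice. The change of −0.74 ± 0.19 (SE, n = 2 mice each) missed the threshold (limma adjusted p = 0.0577), and passed when vpm were scaled to their sum alone (−0.83, adjusted p = 0.0382). The make-up of Mac moved with the group: Ly6c2 was present in 99 of 550 and 234 of 1485 Mac cells of SLE.yaa mice, against 169 of 375 and 63 of 169 of WT mice, and Tlr9 was higher in cells with Ly6c2 than without in all 4 mice. The same order between the groups held in Mac cells with Ly6c2, at 22.2 and 6.03 vpm in SLE.yaa mice and 30.9 and 33.1 vpm in WT mice. It also held in Mac cells without Ly6c2, at 6.09 and 4.49 vpm in SLE.yaa mice and 10.9 and 10.5 vpm in WT mice. Depth moved with Ly6c2 and with the group. Median UMI counts with Ly6c2 were 6844 and 6758 in SLE.yaa mice and 6158 and 6806 in WT mice. Without Ly6c2 they were 3272 and 2942 in SLE.yaa mice and 3351 and 3338.5 in WT mice. Over all Mac cells they were 3515 and 3149 in SLE.yaa mice and 4308 and 4535 in WT mice. Plasma cells, which no longer bear most B cell genes, had 2.15 vpm of Tlr9 in SLE.yaa mouse 1 and were listed at 0 in the other 3 mice.

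Tlr3, the receptor of the group that does not use Myd88, could be tested in DC only. It stood there at 12.6 and 19.6 vpm in SLE.yaa mice and 12.05 and 20.9 vpm in WT mice, which overlapped (log2 change −0.01, 95% interval −0.70 to 0.67, limma adjusted p = 0.988). In B cells it was at 2.56 and 3.28 vpm in SLE.yaa mice and 4.98 and 2.98 vpm in WT mice. B-ISG of WT mouse 1 reached 48.1 vpm, against 8.89 and 2.98 vpm in SLE.yaa mice and 9.09 vpm in WT mouse 2.

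Unc93b1 passed in CD4 cells alone, where it was higher in SLE.yaa mice and where 28.1% of all genes passed and 15.9% were higher. Its change in CD4 did not differ from that in B cells past the threshold (difference 0.17, limma adjusted p = 0.130). CD4 had 53.2 and 43.5 vpm in SLE.yaa mice, against 31.5 and 25.5 vpm in WT mice, a log2 change of 0.60 ± 0.15 (SE, n = 2 mice each; limma adjusted p = 0.00722). The call was lost without SLE.yaa mouse 1 and without WT mouse 2. Among CD4 cells with 3000 to 5000 UMIs the levels were 43.6 and 21.5 vpm in SLE.yaa mice and 15.9 and 11.6 vpm in WT mice (log2 change 0.74, adjusted p = 0.0229). In B cells Unc93b1 stood at 734 and 633 vpm in SLE.yaa mice and 554 and 458 vpm in WT mice, without overlap, and the change of 0.43 did not pass (95% interval 0.12 to 0.74, adjusted p = 0.163).

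The other types gave Unc93b1 levels on both sides. DC had 806 and 742 vpm in SLE.yaa mice and 569 and 460 vpm in WT mice (log2 change 0.59, limma adjusted p = 0.0592). DC cells with fewer than 3 macrophage markers had the opposite order, with 391 and 410 vpm in SLE.yaa mice and 611 and 450 vpm in WT mice (log2 change −0.26). Mac had 431 and 331 vpm in SLE.yaa mice and 495 and 444 vpm in WT mice (log2 change −0.30, adjusted p = 0.270), so the order in Mac was also the opposite of that in B cells. CD8 had 27.3 and 41.5 vpm in SLE.yaa mice and 17.0 and 17.6 vpm in WT mice (log2 change 0.68, adjusted p = 0.0924). PMN, NK, PC and pDC overlapped between the groups.

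Myd88 passed in 0 of 9 types (limma), with 2 at an unadjusted p under 0.05, B and DC. PMN, its highest type, had overlapping levels and a change of −0.06 (95% interval −0.60 to 0.48, limma adjusted p = 0.945). Mac had 115 and 97.0 vpm in SLE.yaa mice and 113 and 88.0 vpm in WT mice. DC had 97.9 and 126 vpm in SLE.yaa mice and 66.3 and 73.1 vpm in WT mice, without overlap (log2 change 0.61, adjusted p = 0.104). In B cells Myd88 stood at 38.2 and 34.2 vpm in SLE.yaa mice and 27.5 and 27.3 vpm in WT mice, without overlap and without passing (log2 change 0.30, 95% interval 0.09 to 0.52, adjusted p = 0.153). Within 3000 to 5000 UMIs the B cell levels overlapped, at 33.0 and 28.3 vpm in SLE.yaa mice and 28.9 and 29.6 vpm in WT mice. B-ISG had 66.7 and 56.5 vpm in SLE.yaa mice and 33.7 and 36.4 vpm in WT mice (log2 change 0.67, adjusted p = 0.651), and B-early had 23.6 and 22.9 vpm in SLE.yaa mice and 31.5 and 36.2 vpm in WT mice (log2 change −0.40, adjusted p = 0.750).

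**Figure D3:**
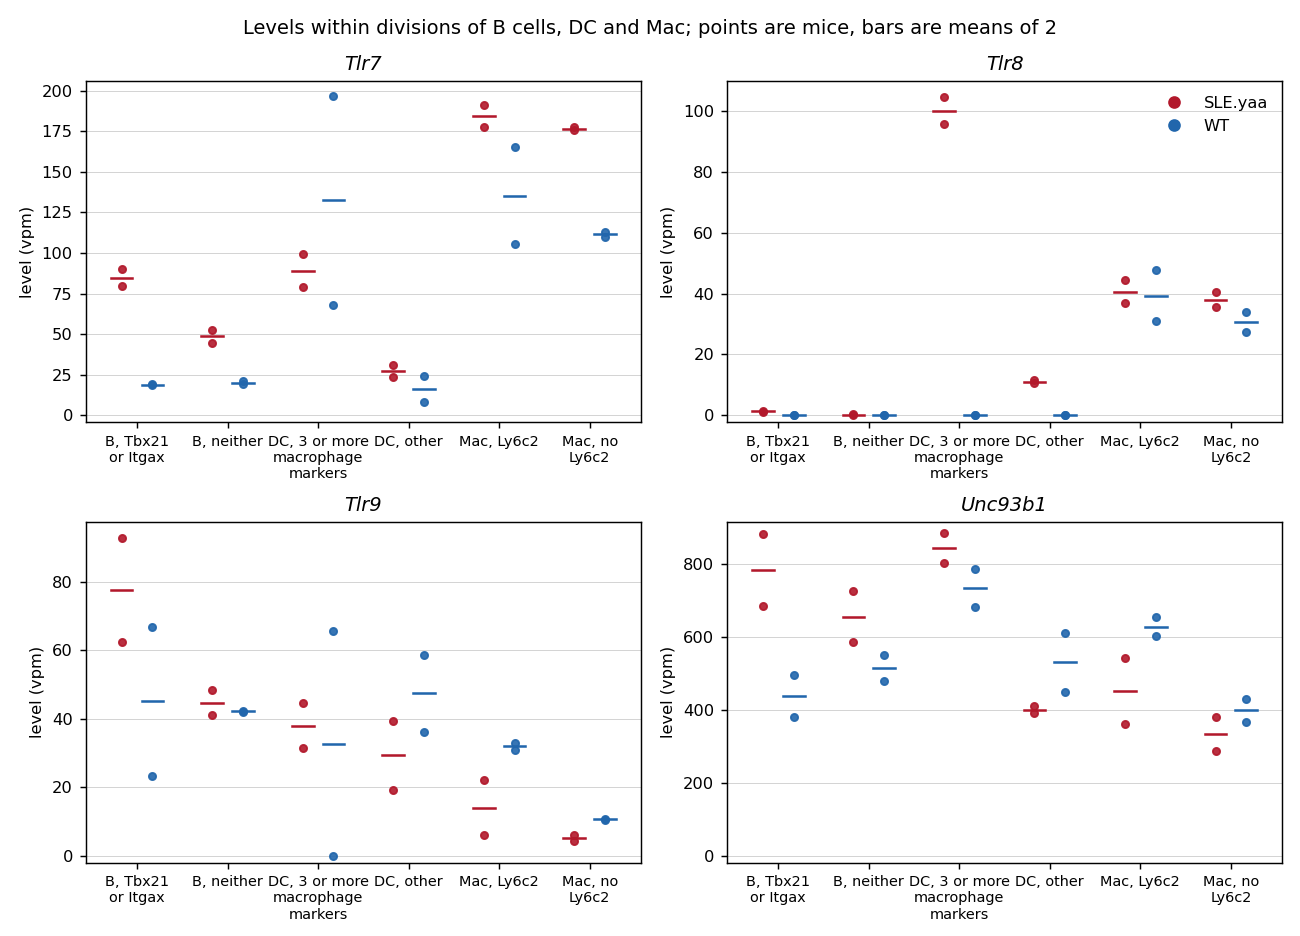
Level (vpm, linear axis) of Tlr7, Tlr8, Tlr9 and Unc93b1 within B cells split by Tbx21 or Itgax, DC split by macrophage markers and Mac split by Ly6c2; points are mice, bars are means of 2 mice, SLE.yaa in red left of WT in blue. Tlr7 was at 79.3 and 89.8 vpm in SLE.yaa B cells with Tbx21 or Itgax and 44.4 and 52.8 vpm in those without, and Tlr8 in DC lay in the cells with macrophage markers, at 105 and 95.7 vpm in SLE.yaa mice.

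Whether a change differed between cell types was tested within mice, as the change in a type minus the change in B cells. In CD4 against B cells, 32.2% of all genes passed. There the Tlr7 change was smaller in CD4 by a difference of −0.63 (limma adjusted p = 0.00342). The differences for Tlr9, at −0.43 (adjusted p = 0.0354), and Myd88, at −0.43 (adjusted p = 0.0217), passed as well, and that of Unc93b1, at 0.17, did not (adjusted p = 0.130). Tlr9 was under the minimum in CD4 itself, at 1.04 and 1.32 vpm in SLE.yaa mice and 2.80 and 3.15 vpm in WT mice, and entered this test through its level in B cells. The added 10 makes a change smaller where the level is low, as Tlr7 is in CD4, and with an added 1 the Tlr7 difference was −0.46 (adjusted p = 0.150).

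In Mac against B cells, 7.99% of all genes passed. Tlr9 (difference −0.95, limma adjusted p = 0.00873) and Unc93b1 (−0.73, adjusted p = 0.00342) passed in this test of the difference, although the change of neither gene passed in Mac or in B cells alone. The order of Tlr9 in B cells also turned within 3000 to 5000 UMIs, as given above. The Tlr7 difference was −0.41 and did not pass (adjusted p = 0.124), nor did Tlr8 (0.24) or Myd88 (−0.23). In DC against B cells, where 11.5% of genes passed, the fitted Tlr8 difference was 3.14 (adjusted p = 0.000263). It entered this test through DC of SLE.yaa mice alone, with DC of WT mice at 0 and B cells near 0, so its size and p rest on those levels and on the pseudocount. The Tlr7 difference of 0.37 had a 95% interval of −0.38 to 1.11 (adjusted p = 0.557).

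The neighbours of Tlr7 on the X chromosome were higher in SLE.yaa cells of several types. The list holds genes that are known as background to lie on the Yaa segment or at its edges, and the borders of the segment were not read from these files. Leaving out Tlr7 and Tlr8, 12 of its 13 genes were in the table. In B cells 7 of the 9 tested were higher and 0 lower, with a median log2 change of 0.73, against −0.01 over all genes. In CD4 cells 8 of 9 were higher (median 0.66), in Mac 4 of 7 (0.68), in DC 2 of 10 with 1 lower (0.30), and 1 each in CD8 (of 8), PMN (of 7) and B-ISG (of 8). These counts hold Arhgap6 in B cells and Gpm6b in CD4, which reached the minimum level through SLE.yaa mice alone. Each had to differ to be tested there. Over all genes, 2.62% were higher in B cells, 15.9% in CD4, 3.92% in Mac, 8.36% in DC, 2.5% in CD8, 1.24% in PMN and 0.604% in B-ISG. In B-early 2 of 10 were higher (median 0.57), where 0.36% of all genes were higher and 0.0771% lower. In NK 0 of 7 passed (limma), with a median of 0.75. At an unadjusted p under 0.05 were 3 of the 7, beside 496 of 8275 over all genes.

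In B cells the genes past the threshold were Rab9, a small GTPase of late endosomes (50.3 and 56.1 vpm in SLE.yaa mice, 23.6 and 25.7 vpm in WT mice, log2 change 0.87), Tmsb4x, which binds actin monomers (log2 change 1.12), Msl3 (0.79), Trappc2 (0.76), Hccs (0.73), Prps2 (0.65) and Arhgap6 (0.59). Arhgap6, at 20.6 and 17.4 vpm in SLE.yaa mice and 9.80 and 8.80 vpm in WT mice, reached the minimum through SLE.yaa mice alone. Ofd1 (0.34) and Mid1 (0.16) did not pass. Tlr7, at 1.12, lies between Tlr8 and Prps2. Tmsb4x, at 10780 and 13878 vpm in SLE.yaa mice and 6071 and 5217 vpm in WT mice, was hardly affected by the added 10. That added 10 makes the changes of Tlr7 and the other genes, at far lower vpm, smaller than their ratios. Sizes of change are therefore not comparable between these genes. The order of changes, which depends in part on level, was not that of positions, and the cell types differed in it. Gpm6b, a membrane proteolipid, had 174 and 194 vpm in CD4 cells of SLE.yaa mice, against 6.29 and 6.94 vpm in WT mice (log2 change 3.54), while in DC it was lower in SLE.yaa mice (log2 change −1.36). In CD4 it reached the minimum through SLE.yaa mice alone, so the test there is no support beyond the levels. Gpm6b overlaps Ofd1 and Ofd1 overlaps Trappc2 in the annotation, and the sources used here do not say if reads were assigned by strand.

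**Figure D4:**
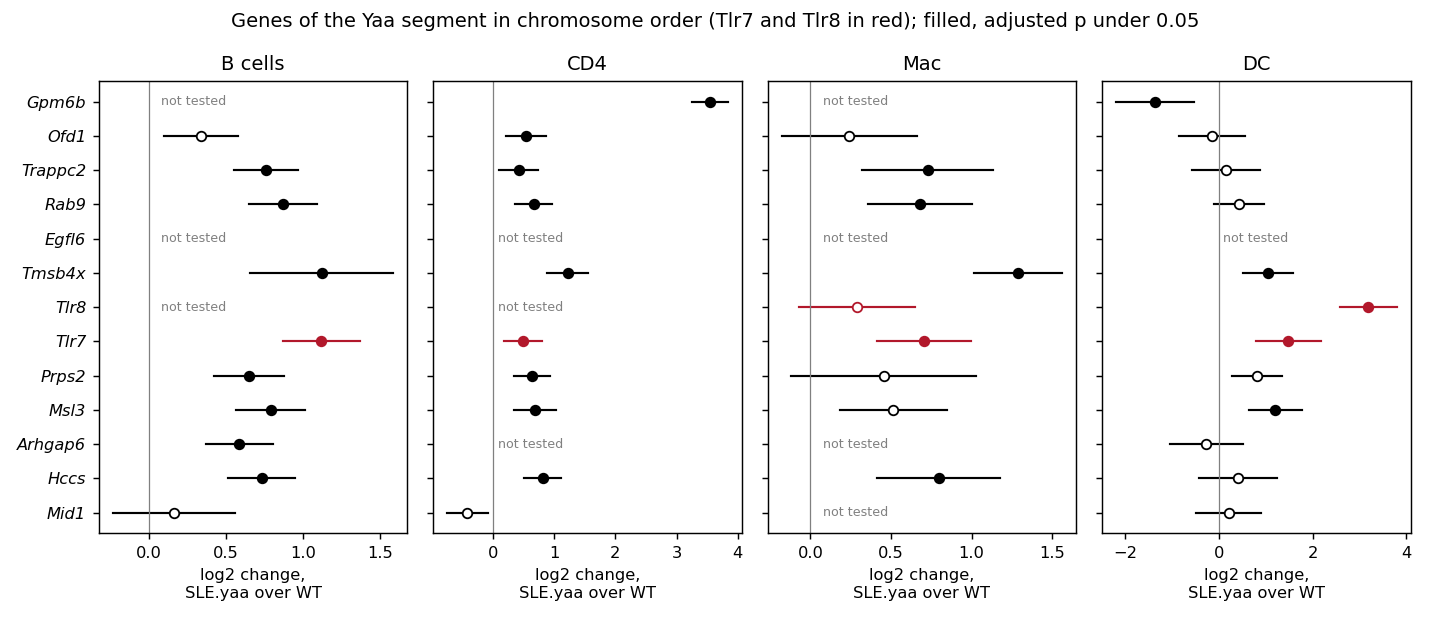
Log2 change, SLE.yaa over WT, with its limma 95% interval, for genes of the Yaa list in chromosome order (rows, Tlr7 and Tlr8 in red) in B cells, CD4, Mac and DC; each panel has its own horizontal scale, and filled points passed at an adjusted p under 0.05. In B cells 7 of 9 tested genes other than Tlr7 and Tlr8 were higher, while Mid1 (0.16) and Ofd1 (0.34) did not pass. Arhgap6 in B cells and Gpm6b in CD4 reached the minimum level through SLE.yaa mice alone.

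The wider pathway is given by counts and medians only, and a gene high in 1 group alone could enter a test through that group. In CD4, Cxcl10, Il10 and Ly96 did so through SLE.yaa mice and Btk through WT mice. In PMN, Cxcl10 did so through SLE.yaa mice. In B cells, outside the Yaa list, 3 of the 57 tested were higher and 0 lower (limma), beside 2.62% higher and 0.895% lower of all genes. At an unadjusted p under 0.05 were 13 of the 57, beside 1006 of 7932 over all genes. The median log2 change of these 57 genes was −0.02, against −0.01 over all genes. The 3 that rose were Hsp90b1 (gp96), the folding chaperone of Toll-like receptors, at 457 and 521 vpm in SLE.yaa mice and 332 and 343 vpm in WT mice (log2 change 0.52, limma adjusted p = 0.0401), Irf8 (0.73) and Nfkbiz (0.47). Irf8 is a transcription factor of B cell and dendritic cell development, and Nfkbiz is an inducible member of the IκB family.

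In Mac 7 of 65 tested genes of the lists were higher and 2 lower, beside 3.92% higher and 1.77% lower of all genes. The kinase gene Ikbke stood at 100.2 and 94.3 vpm in SLE.yaa mice and 21.2 and 19.6 vpm in WT mice (log2 change 1.82, limma adjusted p = 0.000338). Irak3, an inhibitor of Myd88 signalling, stood at 106 and 103 vpm in SLE.yaa mice and 46.5 and 44.7 vpm in WT mice (1.04). Cd14 (1.39), the co-receptor of Tlr4, and the feedback genes Tnip1 (1.09), Nfkbiz (0.60) and Nfkbia (0.48) also rose, as did the protease gene Ctsb (0.49). Ly86 (MD-1), the partner of Cd180, fell to 219 and 168 vpm in SLE.yaa mice, against 423 and 427 vpm in WT mice (−1.11), and the nucleoside transporter gene Slc29a3 fell (−0.80). Among feedback genes alone, 3 of 7 were higher, with a median of 0.48 against 0.03 over all genes.

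In DC 18 of 67 tested genes of the lists were higher and 2 lower, beside 8.36% higher and 3.77% lower of all genes. Genes for folding, trafficking and cleavage held 6 of these among 13 (median 0.61), and genes for nucleic acid handling 3 among 8 (median 0.38), against a median of 0.06 over all genes. Ctsl, a protease that cleaves endosomal receptors, had 172 and 113 vpm in SLE.yaa mice and 6.02 and 10.4 vpm in WT mice (log2 change 3.05). Lgmn, the asparagine endopeptidase with a like role, had 658 and 588 vpm in SLE.yaa mice and 127 and 167 vpm in WT mice (2.02), and Pld3, an exonuclease that removes single-stranded DNA, had 273 and 177 vpm in SLE.yaa mice and 30.1 and 55.7 vpm in WT mice (2.17). Cd14 (2.43), Ctsb (1.95), Irak3 (1.84), Irf7 (1.60), Hsp90b1 (1.50) and Ctss (1.43) were also higher, and Relb (−1.30), a subunit of NF-κB, was lower. Of the 10 remaining genes 9 were higher and 1 was lower. The macrophage marker shares given above moved with these values too, and their part was not tested. Over all genes, DC had 0 genes past the threshold without either SLE.yaa mouse, with 1116 and 1228 at an unadjusted p under 0.05.

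In CD4 cells 17 of 57 tested genes of the lists were higher and 4 lower, beside 15.9% higher and 12.3% lower of all genes. Feedback genes held 7 of those higher and 1 of those lower among 9, with a median of 1.32. Cxcl10, a chemokine induced by interferon, had 59.4 and 77.4 vpm in SLE.yaa mice and 3.84 and 2.21 vpm in WT mice (log2 change 2.58), and Il10 had 21.2 and 27.3 vpm in SLE.yaa mice and was listed at 0 in WT mice. Ctsb (1.87), Dusp1 (1.57), Tnfaip3 (1.42), Nfkbia (1.32), Nfkb2 (1.06), Relb (0.92), Hsp90b1 (0.89) and Nfkbiz (0.83) were higher. Of the 11 remaining genes 7 were higher and 4 lower. They include Ly96 (12.5 and 20.2 vpm in SLE.yaa mice, 5.24 and 4.73 vpm in WT mice), tested through SLE.yaa mice alone. They also include Btk (3.13 and 2.64 vpm in SLE.yaa mice, 10.1 and 10.7 vpm in WT mice), tested through WT mice alone. In PMN, beside 1.24% higher of all genes, 7 of 60 were higher, namely Tnf (2.21), Cxcl10 (2.05), Cd14 (1.76), Ctsb (1.71), Irf7 (1.52), Nfkbia (1.33) and Tnip1 (1.27). There Cxcl10 stood at 20.8 and 61.9 vpm in SLE.yaa mice and 2.91 and 0 vpm in WT mice, so it had to differ to be tested. In B-ISG, Irf7 alone of the lists passed and was lower in SLE.yaa mice, at 218 and 205 vpm, against 346 and 609 vpm in WT mice (−1.08), where 0.263% of all genes were lower. In B-early, CD8 and NK 0 genes outside the Yaa list passed (limma). At an unadjusted p under 0.05 were 8 of 56 in B-early, 7 of 51 in CD8 and 5 of 52 in NK. The same counts over all genes were 673 of 7786 in B-early, 1321 of 8281 in CD8 and 496 of 8275 in NK.

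Patterns over cells were compared as Pearson's r of log2(vpm + 10) over 36 means, 4 mice in each of 9 types, among 10694 genes; means of 1 mouse share a library, and r is given as a description. Tlr7 was most like Smagp (0.867), Stap1 (0.842), an adaptor of B cell receptor signalling, and Ctss (0.829), a lysosomal protease. Tlr8 was most like the myeloid genes Fcgr4 (0.960), Lilra5 (0.952) and Itgb5 (0.949), and Tlr9 like Pkib (0.942), Cd40 (0.940) and H2-DMa (0.938), the last a gene of peptide loading on MHC class II. Unc93b1 was most like Lyn (0.947), Ctsh (0.947) and Wdfy4 (0.940), and Myd88 like Cebpd (0.913), Il1b (0.909) and Pygl (0.905). The closest for Tlr3 were lower, with Znfx1 (0.710), Ttyh2 (0.698) and Cd86 (0.696). Among the 6 genes themselves, Tlr9 and Unc93b1 were most alike (0.838), Tlr7 stood at 0.589 with Unc93b1, 0.538 with Tlr8 and 0.506 with Tlr9, and Tlr9 and Myd88 ran in opposite directions (−0.389).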

How the data were processed

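Expression was measured by 10x Genomics droplets in spleen cells of 4 mice, 2 SLE.yaa and 2 WT. Cell Ranger 5.0.0, Seurat 4.0.0 and GRCm38 (mm10) are named, per the submitters' processing notes. The deposited expression table holds natural log values, and e raised to each value is 1 more than a whole number (within 1.64e-11). The sources used here do not state how the authors made these depth-adjusted values. They sum to 2663 to 6382 in a cell, whereas the deposited UMI counts ran from 1002 to 26847. The deposited percent of mitochondrial UMIs is at most 5.00 and the gene count at most 2999 in any cell, so the authors' table is already filtered. Raw counts had been planned for, so a test that needs no counts took their place. The authors' deposited annotation gave the cell types, and the deposited heavy-chain table gave the isotype of 11275 cells; the T cell receptor table was not used. No doublets were called here, and the sources used here do not say whether the authors removed them. After 15 rows without a gene name (0.0440% of the values) were left out, 16094 genes remained.

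Values were averaged per mouse and type, scaled to 1000000 (vpm) and by TMM factors (edgeR 4.0.16), kept at 10 vpm or more in 2 mice, and tested with limma 3.58.1 with trend on log2(vpm + 10), two-sided, with Benjamini-Hochberg adjustment (R 4.3.3). The procedure was first tested on simulated data. Types with under 20 cells in a mouse, and subsets outside the tested ones, were scaled to their sum alone and described. With 2 mice a group, limma draws the variance of each gene toward a trend over all genes tested. The p-values, SEs and intervals therefore rest on this shared variance as well as on the gene's own spread between these mice. Mice, not cells, were replicates; a mouse's number is only a name and ties no SLE.yaa mouse to a WT mouse. Clopper-Pearson intervals, and upper limits of 3 cells at a count of 0, cover counting error only. The genes and lists were chosen with earlier results of these data known. Named genes were the 6 members, the 3 genes most like each, and up to 10 list genes past the threshold in a comparison by size of change, with the Yaa list kept apart. Alternatives were a pseudocount of 1, no filter, scaling to the sum alone, leaving out each mouse, and leaving out B cells or DC holding markers of other cells. Further alternatives were chosen after seeing the data: subsets by UMI count, isotype, Tbx21 and Itgax or Ly6c2, and the difference between B-early and B.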

Additional observations from a re-analysis of the deposited data

Results flagged for a closer look

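Changes between SLE.yaa and WT mice differed between cell types, by limma on the difference within a mouse, for 6 pairs of gene and type. Among all genes tested, 32.2% passed in CD4 minus B cells, 7.99% in Mac minus B cells and 11.5% in DC minus B cells. In CD4 minus B cells the differences on the log2 scale were −0.63 for Tlr7, −0.43 for Tlr9 and −0.43 for Myd88. In Mac minus B cells they were −0.95 for Tlr9 and −0.73 for Unc93b1. In DC minus B cells the difference was 3.14 for Tlr8, which was listed at 0 in DC of both WT mice and near 0 in B cells. It reached the minimum level for this test through DC of SLE.yaa mice alone, so its size rests on that group and on the pseudocount. Tlr9 was under the minimum in CD4 itself, and neither Tlr9 nor Unc93b1 passed in Mac or in B cells alone. Groups of 2 mice are too small for a test of single outlying mice.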

How the results depend on the processing

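No paired analysis was possible because a mouse's number is only a name and ties no SLE.yaa mouse to a WT mouse. Under the alternatives listed first for the 6 genes and the counts, 336 values kept their direction and their side of the threshold, 28 lost it, 17 gained it and 24 changed sign, and of those added after seeing the data 50 kept both, 5 lost the threshold and 1 gained it. The Tlr7 change in B cells kept its call in all settings but one: with no filter it was 1.12 at an adjusted p of 0.0501. The cause of the other moves was not tested.

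With no filter, Tlr7 was 1.48 (adjusted p = 0.100) in DC and 0.70 (0.0609) in Mac. With 3000 to 5000 UMIs, Tlr7 was 1.63 in DC and 0.50 in Mac, and Tlr8 was 3.61 in DC (adjusted p = 0.0503), where WT mice held 18 and 14 cells. Without DC cells holding macrophage markers, Tlr7 was 0.67, Tlr8 1.11, Tlr3 0.73 and Unc93b1 −0.26. Mac with Ly6c2 had a Tlr7 change of 0.55 and Mac without it 0.73. Scaled to the sum alone, Tlr9 was −0.83 in Mac and −0.0072 in B-ISG, Myd88 −0.10 in Mac and Unc93b1 −0.023 in PMN. For differences between types, scaling to the sum alone gave Tlr9 −0.38, Myd88 −0.35 and Unc93b1 0.26 in CD4 minus B cells and Tlr7 −0.55 in Mac minus B cells. A pseudocount of 1 gave Tlr7 −0.46 and Unc93b1 0.31 in CD4 minus B cells, and Tlr7 −0.67 and Tlr8 −0.064 in Mac minus B cells.

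Leaving out each mouse in turn, Tlr7 ranged from −0.13 to 0.54 in B-early, 0.45 to 0.52 in CD4, 0.47 to 0.73 in CD8, 1.11 to 1.86 in DC and 0.61 to 0.80 in Mac. Tlr8 in DC ranged from 3.10 to 3.28 and Tlr3 in DC from −0.26 to 0.23. Tlr9 ranged from 0.19 to 0.36 in B, −0.39 to 0.42 in B-ISG, −0.40 to 0.23 in DC, −0.93 to −0.54 in Mac and −0.17 to 0.11 over all cells. Unc93b1 ranged from 0.29 to 0.56 in B cells, 0.32 to 0.62 in B, 0.48 to 0.72 in CD4, 0.45 to 0.91 in CD8, 0.43 to 0.74 in DC, −0.58 to 0.21 in NK and −0.017 to 0.42 in PMN. Myd88 ranged from 0.24 to 0.37 in B cells, 0.27 to 0.39 in B, −0.27 to 0.025 in CD4, −0.46 to −0.010 in CD8, 0.44 to 0.77 in DC, −0.089 to 0.24 in Mac, −0.70 to 0.048 in NK and −0.41 to 0.29 in PMN. The differences ranged from −0.74 to −0.52 for Tlr7, −0.54 to −0.33 for Tlr9 and −0.58 to −0.27 for Myd88 in CD4 minus B cells, and −1.06 to −0.85 for Tlr9 in Mac minus B cells. In DC minus B cells they ranged from −0.028 to 0.76 for Tlr7, 3.04 to 3.24 for Tlr8 and −0.25 to 0.44 for Tlr3, and in B-early minus B from −1.44 to −0.48 for Tlr7.

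Over all genes, counts past the threshold moved most in DC, from 0 without either SLE.yaa mouse to 2187 without WT mouse 2, against 1071 with all mice. In Mac they ran from 77 to 1706 against 449, and in B cells from 193 to 730 against 279, with 61 under no filter. In CD4 the count was 1531 without WT mouse 2, against 2367. Scaled to the sum alone, the median change of all genes was −0.12 in Mac and −0.14 in PMN, and the share of calls that were higher was 39.3% in Mac, 36.5% in PMN and 54.6% in DC, against 68.8%, 65.3% and 68.9% with TMM factors. With 2 mice a group and low vpm of the receptors in T cells and NK, small changes could be missed. In NK 0.0967% of all genes passed, against 28.1% in CD4.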
